A study of Mus musculus with 24 samples.

Results

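The genes described here are 8 acute phase protein genes that fat tissue itself transcribes: Saa3, Lcn2, Hp, Orm1, Orm2, Serpina3n, Cp and Lrg1. They were chosen by name and not by a rule on measured values, but with earlier results of these data known. All 8 were found among the 30699 genes of the series. The study sequenced mRNA of white and brown fat (WAT and BAT, for adipose tissue) taken from C57BL/6 mice after 2 subcutaneous injections of 25 mg/kg of an oligonucleotide built with locked nucleic acids. The oligonucleotide was antisense to miR-224 (antimiR-224), antisense to miR-452 (antimiR-452) or a scrambled sequence (scramblemiR), the control in both tissues. Each tissue and treatment had 4 libraries, 24 in all. The labels give neither sex nor age, do not name the white fat depot, and do not say whether every library stands for a mouse of its own. P-values here therefore measure the spread between these libraries, which may be partly technical. The mature miRNAs were not measured in this mRNA sequencing, so inhibition itself could not be checked in these values. The title of the series links oestrogen to both miRNAs carried in circulating extracellular vesicles.

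Acute phase proteins are plasma proteins whose production changes with inflammation. The liver makes most of them under IL-6 acting through STAT3, and IL-1 and TNF acting through NF-kB and C/EBP factors, with glucocorticoids adding to the response. Adipocytes and the macrophages between them also make several. Serum amyloid A3 (Saa3) is the serum amyloid A protein made mainly outside the liver. Lipocalin 2 (Lcn2) binds bacterial siderophores and so withholds iron. Haptoglobin (Hp) captures free haemoglobin for uptake through CD163. The orosomucoids (Orm1, Orm2), or alpha-1-acid glycoproteins, carry lipophilic molecules. Serpina3n is a secreted serine protease inhibitor. Ceruloplasmin (Cp) is a copper-carrying ferroxidase that works beside the iron exporter ferroportin. Lrg1 is a secreted leucine-rich glycoprotein that modifies TGF-beta signalling.

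The agents of the study were directed at miRNAs of a cluster on mouse chromosome X, and their mature sequences from RefSeq (GRCm38.p6, minus strand) are shown because pairing of a seed with an mRNA is what the inhibitors would relieve. Capitals mark the seed, bases 2 to 8, and the 4 arms share no seed. Which arm each inhibitor was made against is not given in the sources used here.
mmu-miR-224-5p (chrX:72261085-72261105): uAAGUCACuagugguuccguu
mmu-miR-224-3p (chrX:72261037-72261058): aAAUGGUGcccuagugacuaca
mmu-miR-452-5p (chrX:72262271-72262292): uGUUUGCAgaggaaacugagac
mmu-miR-452-3p (chrX:72262235-72262256): uCAGUCUCaucugcaaagaggu

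The longest annotated 3′ UTR of each of the 8 genes was searched for the complement of each seed. A single match was found, to the seed of miR-224-5p at position 593 of the 1956 bases of the Saa3 3′ UTR. It is printed with the match in capitals.
Saa3 site: aacaggagacaGTGACTTacttacct
The same letters occurred in the longest 3′ UTR of 12.8% of 21037 mouse genes, and the seed matches of miR-224-3p, miR-452-5p and miR-452-3p in 9.21%, 9.73% and 12.7%. A match of letters is a description and not a measured target site. The Saa3 3′ UTR is the longest of the 8 searched, and whether other transcripts of Saa3 hold the match was not tested.

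The 8 genes lie on 7 chromosomes (GRCm38, GENCODE annotation, all protein coding). Saa3 (ENSMUSG00000040026) spans chr7:46711998-46715700 on the minus strand, Lcn2 (ENSMUSG00000026822) chr2:32384633-32388252 on the minus strand, and Hp (ENSMUSG00000031722) chr8:109575128-109579172 on the minus strand. Serpina3n (ENSMUSG00000021091) spans chr12:104406729-104414329 on the plus strand, Cp (ENSMUSG00000003617) chr3:19957054-20009145 on the plus strand, and Lrg1 (ENSMUSG00000037095) chr17:56119678-56122001 on the minus strand. Orm1 (ENSMUSG00000039196, chr4:63344560-63348163) and Orm2 (ENSMUSG00000061540, chr4:63362449-63365878) stand in the same orientation 14286 bp apart. Over their 775 transcript bases Orm1 and Orm2 were 91.0% identical, with a longest identical run of 141 bases. How reads that match both copies were counted is not given in the sources used here, so the split between Orm1 and Orm2 is uncertain. Identity within the Saa and Serpina3 families was not computed, so counts may be uncertain there as well.

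RefSeq's promoter windows (250 bases before to 50 after a start site, GRCm38.p6) were matched for 6 of the 8 genes, all but Hp and Orm1. The windows of Saa3, Serpina3n and Lcn2 are shown because these 3 genes differed most between white and brown fat. Capitals mark matches to the motifs searched.
Saa3 promoter (chr7:46715627-46715926, minus strand): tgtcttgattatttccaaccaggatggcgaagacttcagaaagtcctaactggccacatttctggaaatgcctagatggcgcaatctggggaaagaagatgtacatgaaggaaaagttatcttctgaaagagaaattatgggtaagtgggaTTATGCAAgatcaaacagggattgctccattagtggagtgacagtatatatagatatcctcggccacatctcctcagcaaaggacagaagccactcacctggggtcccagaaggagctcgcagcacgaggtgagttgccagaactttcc
Serpina3n promoter (chr12:104406458-104406757, plus strand): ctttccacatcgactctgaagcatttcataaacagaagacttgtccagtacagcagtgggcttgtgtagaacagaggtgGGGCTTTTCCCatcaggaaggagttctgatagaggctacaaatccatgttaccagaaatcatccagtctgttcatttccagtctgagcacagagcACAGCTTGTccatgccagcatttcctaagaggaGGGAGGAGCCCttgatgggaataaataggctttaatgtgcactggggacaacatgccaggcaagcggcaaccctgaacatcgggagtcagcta
Lcn2 promoter (chr2:32387690-32387989, minus strand): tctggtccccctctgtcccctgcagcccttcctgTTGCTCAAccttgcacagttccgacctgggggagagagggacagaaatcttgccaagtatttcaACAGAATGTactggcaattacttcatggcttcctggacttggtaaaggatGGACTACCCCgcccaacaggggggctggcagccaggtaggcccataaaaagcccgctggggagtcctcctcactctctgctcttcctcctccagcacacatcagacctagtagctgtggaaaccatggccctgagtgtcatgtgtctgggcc
The motifs were searched on both strands and their matches may overlap. The C/EBP core TTGCNNAA was found in 4 of the 6 genes, namely Saa3, Lcn2, Orm2 and Cp, against 10.8% of all 32851 promoter windows. The NF-kB letters GGGNNNNNCC were found in 4 (Lcn2, Serpina3n, Cp and Lrg1) against 50.8%, and the glucocorticoid receptor letters ACANNNTGT in 2 (Lcn2 and Serpina3n) against 6.85%. TATAAA was found in 3 (Orm2, Cp and Lrg1) against 13.6%, and the STAT letters TTCNNNGAA in none of the 6 against 8.30%. Cp has windows starting at chr3:19956804 and at chr3:19956999, and its matches lay in the latter. A gene was counted where any of its windows matched, while the shares of all promoters are per window. These are matches of letters in the windows and say nothing of binding.

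The deposited values are group means of normalized read counts, and the reads of single libraries were recovered from their digits for every control library and for 98.9% to 99.3% of genes in the inhibitor groups. Values below are therefore normalized counts per library. Hp was too abundant to be recovered in the 4 inhibitor groups, where only its deposited mean is given. Libraries are numbered within a group by size factor, a scaling for depth, since they could not be tied to the sample titles. The control libraries held 22175430 to 27935908 reads in genes in WAT and 16960694 to 20255777 in BAT. Brown adipocyte genes marked the tissues as labelled: Ucp1, the uncoupling protein of brown fat, averaged 36.7 normalized counts in WAT and 116675 in BAT controls.

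Some libraries carried transcripts of other tissues. In WAT, 5 libraries exceeded 4 times the median of the 12 for a list of 10 transporting tubule epithelium genes: antimiR-224 libraries 1 and 2 and antimiR-452 libraries 1, 2 and 3. The geometric mean of that list was 111 to 284 normalized counts in those 5 and 1.65 to 20.9 in the other 7, where control library 4 was the highest. Its summed level ranged from 77 to 685 in controls, 197 to 6309 under antimiR-224 and 208 to 5157 under antimiR-452, with 0 to 6, 0 to 3 and 0 to 6 of its genes at 0. A list of 8 recovered epididymis genes summed to 8.34 to 618, 5.45 to 24296 and 25.5 to 3946 in the same order. The tissue these transcripts came from was not tested. Male germ cell genes were high in WAT control library 2 and in antimiR-224 libraries 3 and 4, at 3413, 1044 and 297. A skeletal muscle list, which rests on 1 recovered gene in BAT, was high in WAT antimiR-452 library 3 and in BAT control libraries 1 and 2, antimiR-224 library 1 and antimiR-452 library 1. For several members, values without these libraries are given beside the result.

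White and brown fat of the scramblemiR mice were compared to see where these genes are transcribed without an inhibitor. The tissues were scaled together for this comparison, so values differ slightly from those within a tissue. Of the 8 genes, 6 were higher in WAT and none was lower, by limma on log2(normalized count + 1) with Benjamini-Hochberg adjustment over 16818 genes, at an adjusted p under 0.05. Over all genes tested, 42.0% differed, 22.1% being higher in WAT and 19.9% lower. Of the calls, 52.6% were higher in WAT under this scaling, 67.1% under upper quartile scaling and 81.5% under scaling by total reads, which moved the median log2 difference of all genes from 0.08 to 0.29 and 0.61. Relative to that median the members moved little under the 3 scalings, from 6.26 to 6.18 and 6.06 for Saa3 and from 1.89 to 1.89 and 1.88 for Lrg1. The 4 WAT libraries lay wholly above the 4 BAT libraries for the same 6 genes, as they did for 19.0% of the 22465 genes with a mean of at least 1.

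Saa3 was close to absent from brown fat. It stood at 313, 713, 38.8 and 84.8 normalized counts in the 4 WAT controls and at 3.73, 0, 2.86 and 0 in the BAT controls. The WAT libraries spread widely, with library 2 highest and library 3 lowest, and none overlapped with BAT, where the gene had 5 reads in all. The ratio of means was 175, and the log2 difference was 6.33 (SE 0.935, limma adjusted p = 0.000602). Without WAT library 2, which is high in germ cell genes, it was 5.63, and without WAT library 3 it was 7.02.

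Serpina3n was at 8186, 4522, 8172 and 6812 in WAT and at 570, 182, 91.4 and 171 in BAT. All WAT libraries lay far above those of BAT, where library 1 was the highest. The log2 difference was 5.06 (SE 0.50, adjusted p = 0.000128). BAT controls 1 and 2 are the libraries high in muscle genes, and without the libraries high in other tissues' genes the difference was 5.93.

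Lcn2 was at 166, 323, 97.0 and 1290 in WAT and at 9.93, 16.6, 15.7 and 23.7 in BAT. WAT library 4 stood apart from the other three and was also the control library with the highest tubule epithelium level. The log2 difference was 4.10 (SE 0.703, adjusted p = 0.00161), and 3.38 without WAT library 4.

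Ceruloplasmin, haptoglobin and Lrg1 were transcribed in both tissues, and more in white fat. Cp was at 4699, 3837, 5152 and 4646 in WAT and at 1213, 673, 709 and 593 in BAT, a log2 difference of 2.57 (SE 0.220, adjusted p = 3.20e-05). Hp was at 48435, 51646, 65140 and 50452 in WAT and at 8968, 12262, 14087 and 17694 in BAT, a log2 difference of 2.06 (SE 0.239, adjusted p = 0.000150). Lrg1 was at 5967, 6662, 5732 and 7695 in WAT and at 1188, 1449, 1949 and 2241 in BAT, a log2 difference of 1.97 (SE 0.214, adjusted p = 0.000104). The libraries of the tissues did not overlap for any of the 3. In bulk tissue, fewer cells of a type and less RNA per cell cannot be told apart.

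The orosomucoids did not pass the test. Orm1 was at 2438, 455, 1125 and 3470 in WAT and at 981, 1463, 1547 and 1533 in BAT, so the groups overlapped and WAT alone spread over more than a factor of 7. Its log2 difference was 0.09 (95% interval -1.25 to 1.42, adjusted p = 0.915). Orm2 was at 17.7, 15.7, 3.88 and 53.4 in WAT and at 8.69, 1.28, 5.71 and 11.8 in BAT. Its log2 difference was 1.36 (95% interval -0.51 to 3.23, adjusted p = 0.217). The intervals leave room for differences in either direction.

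**Figure D1:**
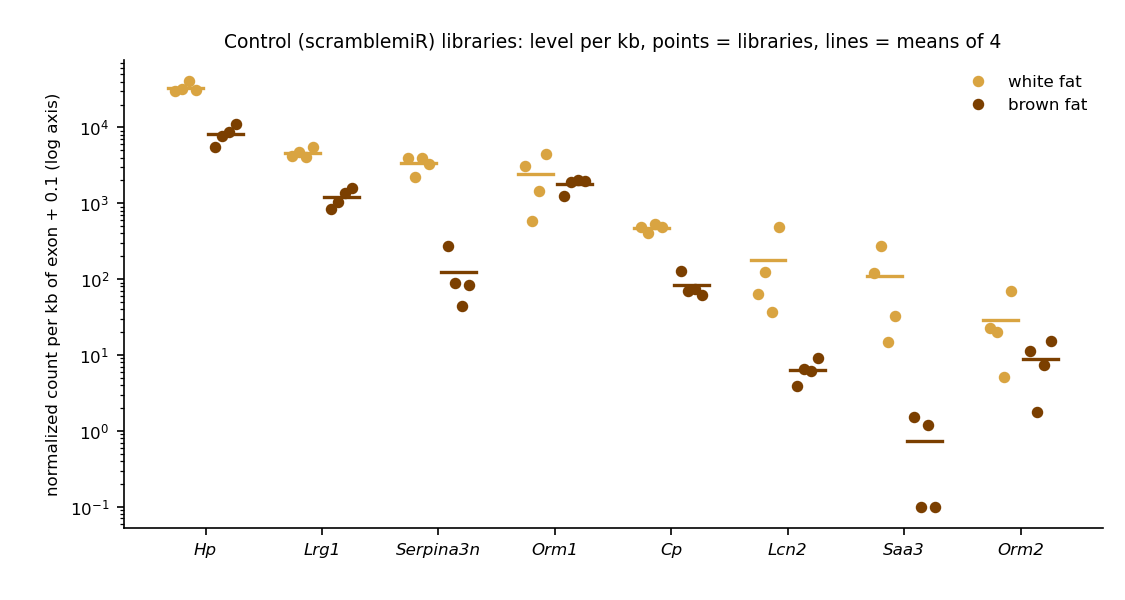
Normalized counts per kilobase of exon plus 0.1 (log axis, both tissues scaled together) of the 8 genes in the 4 scramblemiR libraries of white and of brown fat, with a point per library and a line at each mean. The white fat points lie wholly above the brown fat points for 6 genes and overlap with them for Orm1 and Orm2, and the brown fat libraries without a Saa3 read are drawn at 0.1.

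Levels of different genes were compared per kilobase of annotated exon. This divides by all exons of all annotated transcripts, which is 9566 bases for Cp and 775 for Orm1, and so understates a gene whose main transcript uses few of them. In WAT the order was Hp (33573 normalized counts per kilobase), Lrg1 (4626), Serpina3n (3354), Orm1 (2416), Cp (479), Lcn2 (179), Saa3 (110) and Orm2 (29.3). Hp lay far above the rest, and the libraries of Serpina3n and Orm1, Cp and Lcn2, Lcn2 and Saa3, and Saa3 and Orm2 overlapped. Those of Lrg1 and Orm1, and of Lcn2 and Orm2, overlapped as well. In BAT the order was Hp (8252), Orm1 (1782), Lrg1 (1212), Serpina3n (123), Cp (83.3), Orm2 (8.87), Lcn2 (6.28) and Saa3 (0.631). There the libraries of Orm1 and Lrg1, Serpina3n and Cp, and Orm2 and Lcn2 overlapped. Haptoglobin was thus the most abundant of the 8 in both tissues by group mean, and Orm1 lay above Lrg1 and Serpina3n in each of the 4 brown fat libraries.

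Most tested genes of a wider list of liver acute phase genes stood in the same direction. The list was not split, here or below, by whether inflammation raises or lowers a gene. Of 30 listed, 26 could be tested between the control tissues, 19 were higher in WAT and 1 was lower, with a median log2 difference of 3.96 against 0.08 for all genes. Complement C4b (log2 difference 3.94), transferrin Trf (4.52), albumin Alb (8.79) and transthyretin Ttr (6.84) were among those higher. Complement C3, the most abundant of the list, had a log2 difference of 0.52 (SE 0.370) and did not pass, and the metallothionein Mt1 was lower in WAT (-0.84). Of 10 hepatocyte marker genes, all 10 were higher in WAT, with a median of 5.44. The part of the hepatocyte genes in the differences of the 8 genes was not tested.

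Upstream genes were called in both directions, where 22.1% of all genes tested were higher in WAT and 19.9% lower. Of 18 cytokine and receptor genes 11 were tested, 3 were higher in WAT (the IL-1 receptor Il1r1 at 1.36, Lif at 1.26 and the oncostatin M receptor Osmr at 0.49) and 1 was lower (the IL-1 antagonist Il1rn at -1.73). Of 18 genes of STAT3, C/EBP and NF-kB control, 2 were higher (Socs1 at 2.17, Nfkbia at 0.57) and 3 were lower (the kinase Pim1 at -3.69, Cebpb at -3.41 and Bcl3 at -2.33). None of 8 glucocorticoid-induced genes passed the test in either direction, and 1 had an unadjusted p under 0.05.

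Among 21 genes for partners and receptors of the 8 proteins, 17 were tested, 9 were higher in WAT and 2 lower. The haptoglobin-haemoglobin receptor Cd163 (1.91), the ferroxidase hephaestin Heph (3.95), the candidate lipocalin 2 receptor Slc22a17 (1.52) and Mmp9 (2.46), the protease that lipocalin 2 binds, were higher. So were Tlr2 (1.56) and Tlr4 (1.62), receptors on which serum amyloid A can act. Ferroportin, Slc40a1, was lower in WAT (-1.73), as was the TGF-beta receptor Tgfbr2 (-0.55). The difference of Tgfbr2 is about as large as the move of the median of all genes, from 0.08 to 0.61, under scaling by total reads. Macrophage markers were higher in WAT for 6 of 8 genes, with a median of 2.03, and mesothelial markers for 9 of 9, with a median of 6.90. Mature adipocyte markers were higher for 6 of 9 (median 1.66) and stromal progenitor markers for 4 of 7 (median 1.23). Simple epithelium markers were higher for 6 of 8 tested (median 3.98). Lower in WAT were 7 of 7 brown adipocyte and 4 of 10 skeletal muscle markers. The part of these cell types in the differences was not tested.

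In white fat, the inhibitors were compared with scramblemiR to ask whether blocking either miRNA changes these genes. No member passed the adjusted threshold in either comparison, by the authors' test or by limma. By the authors' deposited tests 0.00343% of 29128 genes passed with antimiR-224 (1 gene, not a member) and 0.0% of 29079 with antimiR-452, with 452 and 702 genes at an unadjusted p under 0.05. In limma 0.0% passed in both (17699 and 17587 genes tested), with 1105 and 789 genes at an unadjusted p under 0.05. Both comparisons share the same 4 control libraries. None of the 7 members with library values had an inhibitor group wholly above or below the controls in WAT. Over all genes with a mean of at least 1, the antimiR-224 libraries lay wholly above the controls for 1.56% and wholly below for 1.54%, and the antimiR-452 libraries for 1.07% and 0.686%.

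Lipocalin 2 varied widely in white fat. The scramblemiR libraries held 223.9, 444, 130 and 1747 normalized counts. The antimiR-224 libraries held 5184, 6526, 170 and 647. The antimiR-452 libraries held 2679, 6805, 4768 and 174. So 2 of 4 and 3 of 4 inhibitor libraries lay above every control, while each inhibitor group also had a library as low as the controls.

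The Lcn2 means were 636 ± 752 (SD, n = 4) in controls, 3132 ± 3198 (SD, n = 4) under antimiR-224 and 3607 ± 2841 (SD, n = 4) under antimiR-452. In the authors' deposited tables the log2 ratios were 2.30 (p = 0.0726) and 2.49 (p = 0.0165), both with an adjusted p of 1. In limma the log2 differences were 1.84 (SE 1.25, adjusted p = 0.808) and 2.33 (SE 1.19, adjusted p = 0.995).

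The 5 inhibitor libraries with high Lcn2 were the same 5 that were high in transporting tubule epithelium genes. Lcn2 was 2679 to 6805 in them and 130 to 1747 in the other 7, whose median was 223.9. Simple epithelium genes had a geometric mean of 423 to 856 in these 5 and 17.1 to 135 in the other 7, and ciliated epithelium genes 242 to 480 and 4.79 to 117. Macrophage genes were 482 to 1254 and 687 to 1284, and neutrophil genes, whose cells store lipocalin 2, 3.29 to 13.5 and 2.44 to 18.8. Without these 5 libraries the Lcn2 log2 difference was -0.23 with antimiR-224 (2 libraries against 4) and -1.16 with antimiR-452 (1 library against 4, assumed to vary like the others). The part of these epithelia in the Lcn2 values was not tested further.

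**Figure D2:**
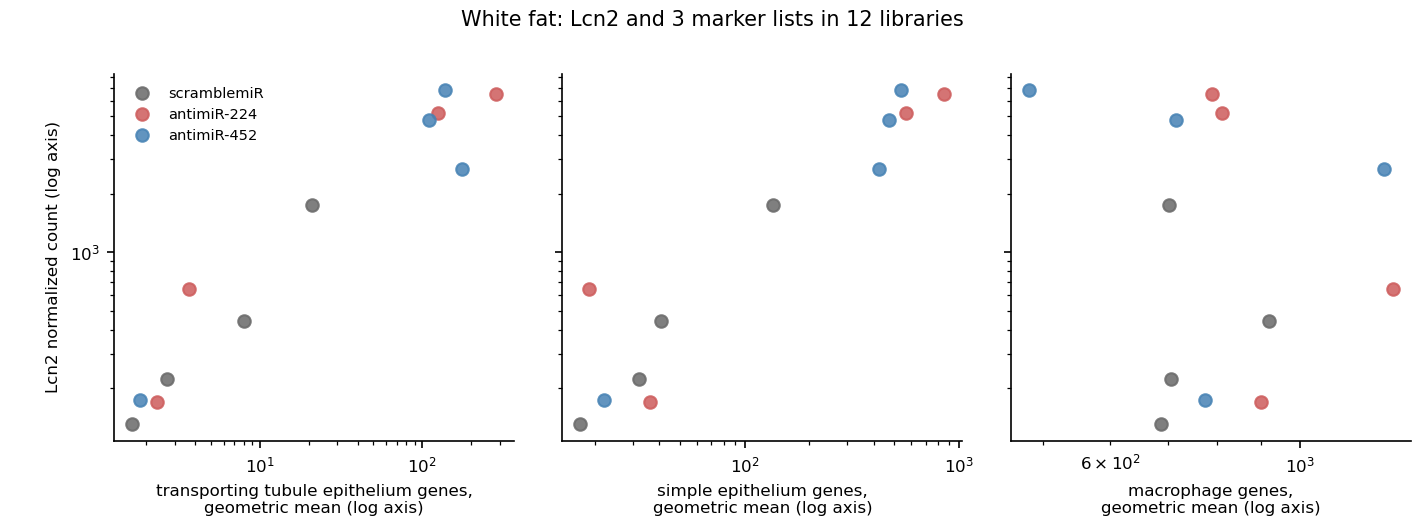
Lcn2 in each of the 12 white fat libraries (normalized counts, log axis) against the geometric mean of the transporting tubule epithelium, simple epithelium and macrophage genes (log axes). The 5 libraries at 111 to 284 for tubule epithelium genes hold 2679 to 6805 Lcn2 counts, and the other 7 hold 130 to 1747.

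Saa3 spread over more than a factor of 18 among the controls alone. It was at 423, 981, 52.1 and 115 in scramblemiR, 792, 91.3, 1874 and 636 with antimiR-224, and 309, 39.0, 113 and 105 under antimiR-452. All groups overlapped, and the highest value was in antimiR-224 library 3. The limma log2 difference was 1.27 (95% interval -1.24 to 3.79, adjusted p = 0.824) with antimiR-224, the miRNA whose 5p seed match is printed above, and -1.03 (95% interval -3.13 to 1.07, adjusted p = 0.995) with antimiR-452. Leaving out single libraries gave 0.58 (without control library 3) to 2.13 (without antimiR-224 library 2) for antimiR-224, and -1.72 (without control library 3) to -0.32 (without control library 2) for antimiR-452. Without the libraries high in tubule epithelium genes the antimiR-224 value was 2.28, and without those high in germ cell genes 0.97. Neither interval excludes a change of more than 2-fold in either direction.

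The orosomucoids had lower means with both inhibitors but did not pass the test. Orm1 was at 3299, 626, 1513 and 4698 in controls, 579, 591, 1492 and 1200 with antimiR-224, and 762, 1064, 1582 and 2668 under antimiR-452. Orm2 was at 23.9, 21.6, 5.21 and 72.4 in controls, 6.97, 0.972, 7.64 and 8.87 with antimiR-224, and 4.21, 4.75, 6.33 and 20.0 under antimiR-452. Control library 4 was the highest of the 12 for both genes, and control libraries 2 and 3 for Orm1 and library 3 for Orm2 lay within the range of the inhibitor libraries.

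For antimiR-224 the limma log2 difference was -1.14 for Orm1 (SE 0.619, adjusted p = 0.799) and -1.90 for Orm2 (SE 0.890, adjusted p = 0.796). For antimiR-452 it was -0.53 (SE 0.623) and -1.46 (SE 0.823), both with an adjusted p of 0.995. Leaving out control library 2 or control library 4 moved Orm1 to -1.69 and -0.72 for antimiR-224 and to -1.08 and -0.11 for antimiR-452. Leaving out control library 3 or control library 4 moved Orm2 to -2.51 and -1.33, and to -2.08 and -0.89 in the same order. Without the 3 libraries high in germ cell genes, Orm1 was at -2.29 with antimiR-224, with an adjusted p of 0.0504, and that fit called 1371 genes. It compared antimiR-224 libraries 1 and 2, both high in tubule epithelium genes, with control libraries 1, 3 and 4, none of which was. Inhibitor and epithelium level cannot be told apart in it. Orm1 was 579 to 1582 in the 5 libraries high in tubule epithelium genes and 626 to 4698 in the other 7.

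Serpina3n, Cp and Lrg1 were abundant in each of the 12 white fat libraries, and Hp in the 4 controls and by both inhibitor means. Serpina3n was at 11076, 6224, 10983 and 9223 in controls, 6962, 6509, 8407 and 18008 with antimiR-224, and 7300, 6671, 7898 and 11540 under antimiR-452. Its limma log2 difference was -0.0063 (95% interval -0.78 to 0.76) with antimiR-224 and -0.17 (95% interval -0.71 to 0.36) with antimiR-452. A single library, antimiR-224 library 4, stood well above the rest.

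Cp varied little between white fat libraries. It was at 6358, 5280, 6924 and 6291 in controls, 7703, 7766, 6122 and 7232 with antimiR-224, and 6534, 6154, 6595 and 7322 under antimiR-452. With antimiR-224, 3 of 4 libraries lay above every control, and the log2 difference was 0.21 (95% interval -0.08 to 0.51, adjusted p = 0.805). With antimiR-452 it was 0.09 (95% interval -0.20 to 0.39).

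Lrg1 was at 8074, 9169, 7703 and 10419 in controls, 8707, 7625, 3705 and 18119 with antimiR-224, and 6614, 6940, 9064 and 7470 under antimiR-452. The antimiR-224 libraries enclosed the controls, and 3 of 4 antimiR-452 libraries lay below them. The log2 differences were -0.10 (95% interval -1.04 to 0.83) and -0.24 (95% interval -0.60 to 0.11). Hp was at 65534, 71079, 87544 and 68311 in controls. Its deposited inhibitor means were 75772 and 61127, and the authors' deposited table gave log2 ratios of 0.05 (p = 0.917) and -0.27 (p = 0.492).

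**Figure D3:**
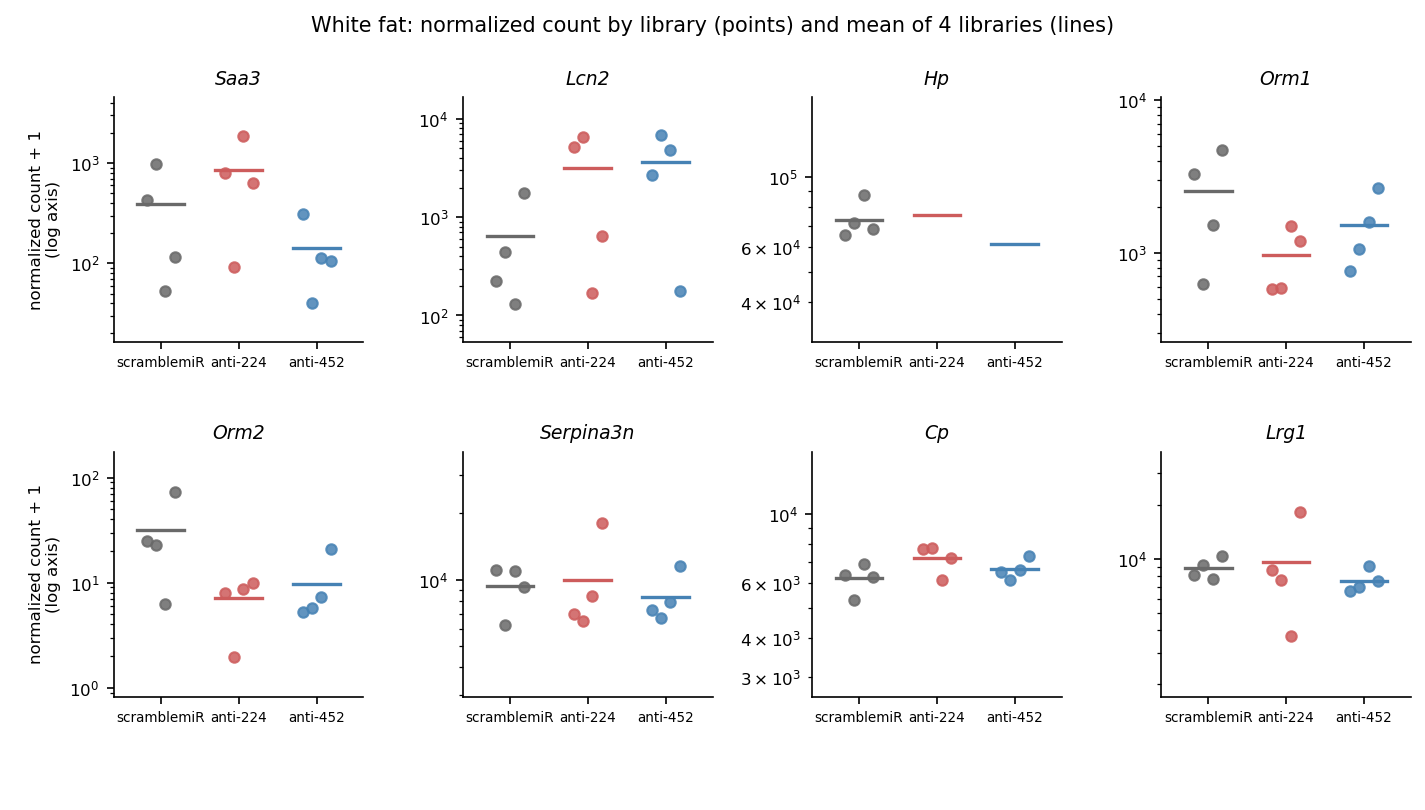
Normalized counts plus 1 (log axis) of the 8 genes in white fat under scramblemiR, antimiR-224 and antimiR-452, with a point per library and a line for the group mean. The groups overlap for every gene with library values, Lcn2 splits into 5 inhibitor libraries at 2679 or more and 7 libraries at 1747 or less, and for Hp only the deposited means of the inhibitor groups are drawn.

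In brown fat no member passed the threshold either. By the authors' deposited tests 0.0% of 24084 genes passed with antimiR-224 and 0.0% of 24248 with antimiR-452 (276 and 121 at an unadjusted p under 0.05). In limma 0.0% of 14268 and 0.0% of 14402 genes passed (850 and 561 at an unadjusted p under 0.05). These comparisons share their 4 control libraries as well. Of the 7 members with library values, 1 lay wholly above the controls with antimiR-224 and 1 wholly below, against 2.38% and 1.35% of 18838 genes. None did so with antimiR-452, against 1.61% and 1.56% of 18997 genes.

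The member wholly above was Orm1. It was at 730, 1106, 1148 and 1128 in controls and at 1288, 1332, 1809 and 1220 with antimiR-224. The log2 difference was 0.46 (SE 0.203, 95% interval 0.01 to 0.92), and the limma adjusted p was 0.732. With antimiR-452 the libraries were at 370, 1304, 2794 and 1981, with 3 of 4 above every control, and the log2 difference was 0.33 (95% interval -0.93 to 1.59). The low antimiR-452 library and the low control library are both among those high in muscle genes. Without the libraries high in other tissues' genes, Orm1 was at 0.33 with antimiR-224 and at 0.75 under antimiR-452.

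The member wholly below was Lcn2, at very low counts. Controls held 7.39, 12.6, 11.6 and 17.4 normalized counts and antimiR-224 libraries 2.40, 4.18, 0 and 7.0, from 48 and 14 reads in all. The mean lay under the minimum of 10 that limma used. A two-sided exact permutation test of 4 against 4 libraries gave p = 0.0286, the smallest it can give, as 1 of 5 member values tested in this way and without adjustment. Limma without the minimum gave a log2 difference of -1.89 (adjusted p = 0.813), and the authors' deposited table a log2 ratio of -1.85 (p = 0.0310, adjusted p of 1). With antimiR-452 Lcn2 was at 20.6, 6.80, 13 and 15.5, and the log2 difference was 0.13 (95% interval -0.96 to 1.22). Neutrophil genes had a geometric mean of 1.87 to 10.1 in BAT controls, 0.918 to 1.63 with antimiR-224 and 0.835 to 4.25 with antimiR-452. Their summed level was 39.1 to 149, 13.6 to 30.3 and 18.6 to 130, with 0 to 4, 4 to 5 and 3 to 6 of 9 genes at 0, and their part in the Lcn2 values was not tested.

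Saa3 and Orm2 were near the floor of detection in brown fat. Saa3 had 3, 0, 2 and 0 reads in controls, 1, 0, 0 and 0 with antimiR-224, and 7, 0, 0 and 0 under antimiR-452. Orm2 had 7, 1, 4 and 8 reads in controls, 8, 7, 12 and 3 with antimiR-224, and 2, 12, 18 and 11 under antimiR-452. The exact permutation p was 0.429 and 1 for Saa3 and 0.543 and 0.171 for Orm2. No difference was detectable at this depth.

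Serpina3n in brown fat was at 424, 137, 67.8 and 126 in controls, 217, 69.3, 46.5 and 138 with antimiR-224, and 949, 54.4, 190 and 162 under antimiR-452. Library 1 was the highest of each group, and all 3 such libraries are high in muscle genes. The log2 differences were -0.59 (95% interval -1.98 to 0.81) and 0.41 (95% interval -1.49 to 2.31), and -0.27 and 0.35 without the libraries high in other tissues' genes. Cp was at 903, 509, 526 and 436 in controls, 233, 560, 451 and 497 with antimiR-224, and 696, 465, 319 and 712 under antimiR-452, with log2 differences of -0.46 (95% interval -1.17 to 0.25) and -0.14 (95% interval -0.89 to 0.60).

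Lrg1 in brown fat was at 885, 1095, 1445 and 1649 in controls, 1445, 946, 1676 and 1740 with antimiR-224, and 1551, 1614, 2877 and 1450 under antimiR-452. The groups overlapped, and antimiR-452 library 3 was the highest. The log2 differences were 0.20 (95% interval -0.38 to 0.78) and 0.53 (95% interval -0.14 to 1.21). Hp was at 6675, 9268, 10447 and 13016 in controls, with deposited means of 13327 and 14423 under the inhibitors. The authors' deposited table gave Hp log2 ratios of 0.44 (p = 0.339) and 0.54 (p = 0.427).

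**Figure D4:**
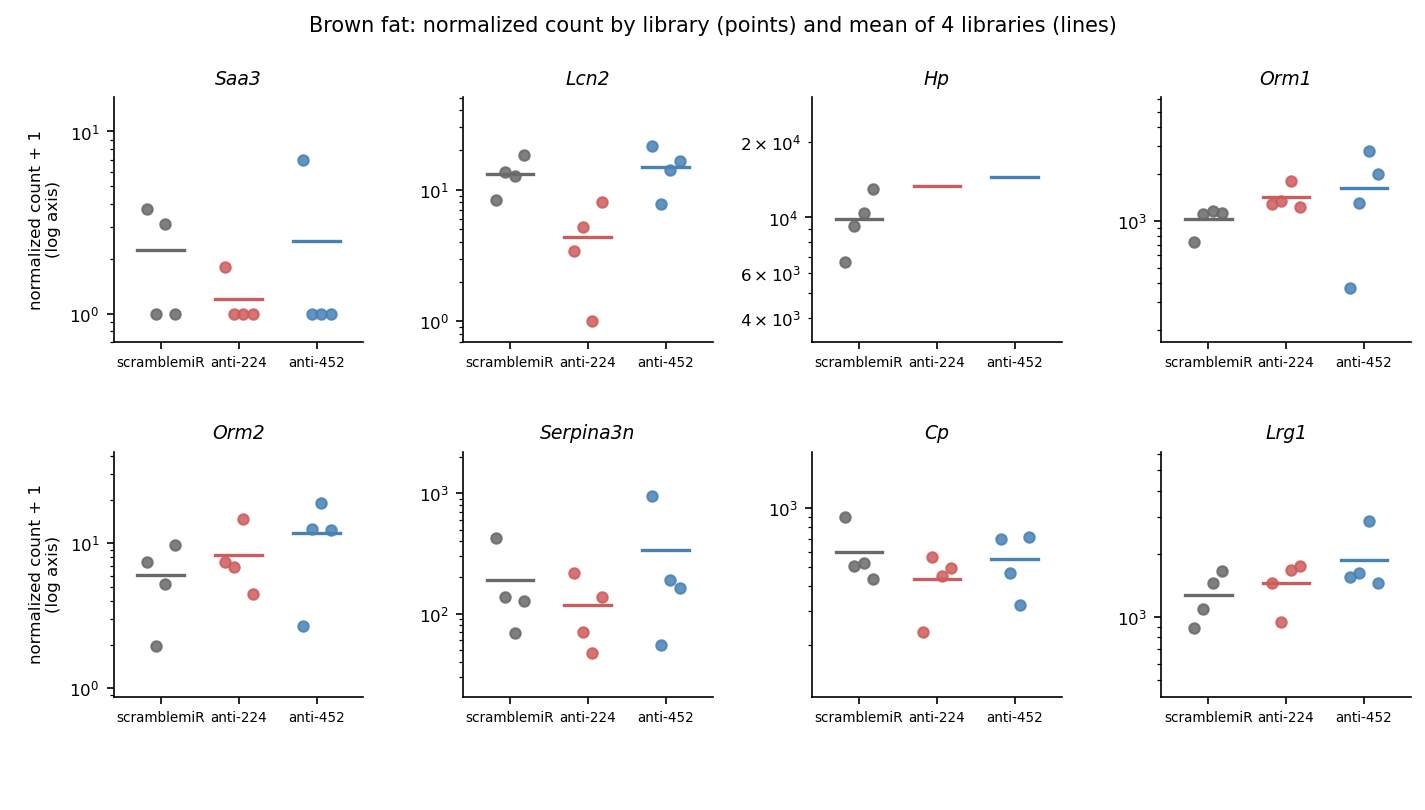
Normalized counts plus 1 (log axis) of the 8 genes in brown fat under scramblemiR, antimiR-224 and antimiR-452, with a point per library and a line for the group mean. The antimiR-224 points lie wholly above the controls for Orm1 and wholly below them for Lcn2, and Saa3 has reads in 2, 1 and 1 libraries of the groups.

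Whether an inhibitor's difference was itself different between white and brown fat was tested with an interaction term. No gene passed for antimiR-224 (0.0% of 17049, with 1374 at an unadjusted p under 0.05) or for antimiR-452 (0.0% of 17086, with 945). For antimiR-224 the member values furthest from 0 were those of Lcn2 (WAT minus BAT 3.73 on the log2 scale, SE 1.46), Orm2 (-2.43, SE 1.07), Saa3 (1.95, SE 1.30) and Orm1 (-1.61, SE 0.680). The limma adjusted p was 0.655 for Saa3 and 0.612 for the other three. For antimiR-452 Lrg1 had -0.78 (SE 0.339, limma adjusted p = 0.847), Orm2 -2.31 (SE 1.13, adjusted p = 0.847) and Lcn2 2.21 (SE 1.34, adjusted p = 0.848). Without the WAT libraries high in tubule epithelium genes, Lcn2 was at 1.66 for antimiR-224 and at -1.29 for antimiR-452, and Saa3 at 2.96 for antimiR-224. These fits treat white and brown fat libraries as independent, and whether any came from the same mouse could not be taken into account.

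**Figure D5:**
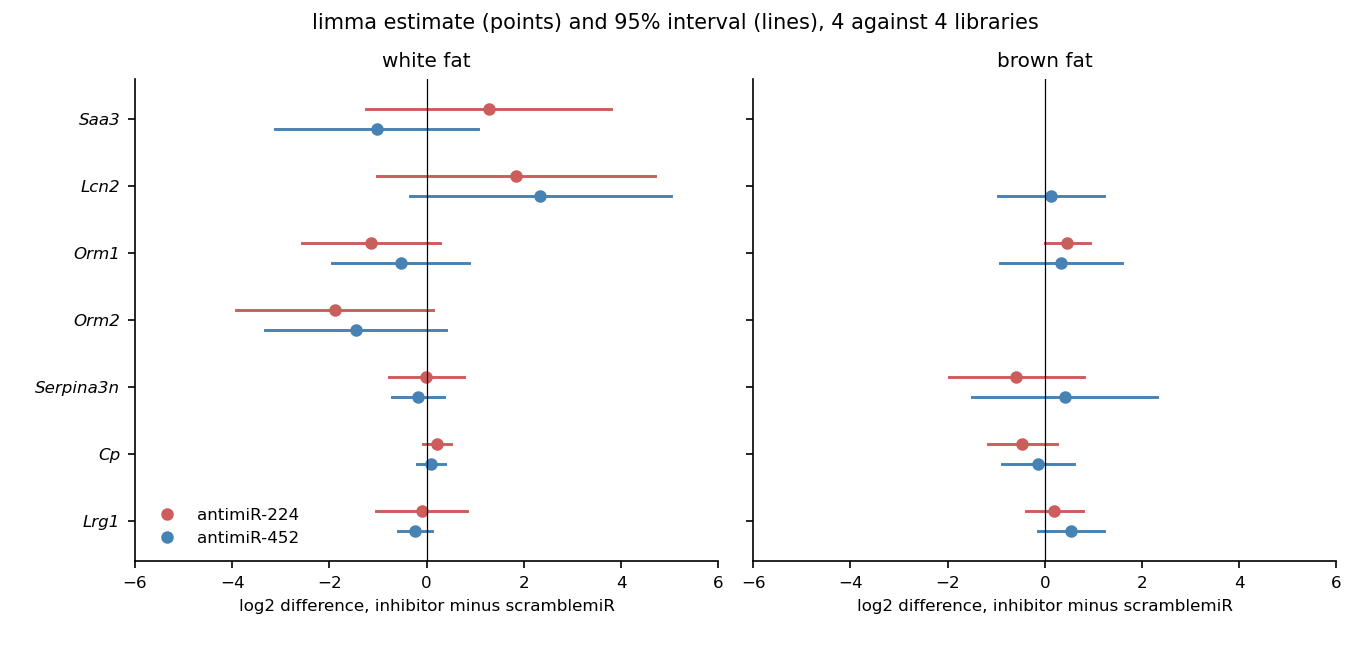
Log2 difference of each inhibitor from scramblemiR (points, limma) with 95% intervals for the members that could be tested in white and brown fat. Every interval includes 0 except that of Orm1 with antimiR-224 in brown fat (0.01 to 0.92), whose adjusted p was 0.732.

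The pathway genes were counted in the same comparisons, and none passed in any of the 4. With antimiR-224 in WAT, the 26 tested liver acute phase genes had a median log2 difference of -0.36 against 0.02 for all genes, with 7 above 0 and 0 at an unadjusted p under 0.05. With antimiR-452 the median of 25 was -0.52 against -0.03, with 5 above 0 and 1 at an unadjusted p under 0.05. The most abundant of them were C3, C4b and Trf. The authors' deposited tables gave C3 log2 ratios of 0.43 and -0.27, C4b 0.36 and -0.15, and Trf -0.27 and -0.47 with antimiR-224 and antimiR-452. Hepatocyte markers had medians of -0.47 and -0.55 in the same comparisons, and their part was not tested. In BAT only 6 liver acute phase genes could be tested with antimiR-224, with a median of 0.21 against -0.08, 4 above 0 and 1 at an unadjusted p under 0.05. With antimiR-452 the median of 7 was 0.50 against -0.05, with 6 above 0 and 1 at an unadjusted p under 0.05. By the authors' deposited log2 ratios the antimiR-224 median had the other sign. It was -0.29 against -0.05 for the 7 genes with a mean of at least 10, with 2 above 0 and 5 below. The deposited antimiR-452 median was 0.79 against 0.06 for 8 genes, with 5 above 0 and 3 below. In limma, hepatocyte markers in BAT had a median of 0.36 (2 tested) with antimiR-224. Under antimiR-452 their median was 1.29 (3 tested, 2 at an unadjusted p under 0.05), and their part was not tested.

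The signalling genes lay close to the median of all genes in white fat. With antimiR-224 the cytokine and receptor list had a median of 0.19 (13 tested), the STAT3, C/EBP and NF-kB list 0.07 (17 tested), the glucocorticoid list -0.07 (8 tested) and the partner list 0.17 (15 tested). With antimiR-452 the medians were 0.06, 0.07, -0.05 and 0.03. The signal transducer Stat3 had deposited log2 ratios of 0.18 and 0.04, and the IL-6 receptor subunit Il6st 0.17 and 0.01. The adipocyte factor Cebpa had -0.46 and -0.28. In BAT the limma medians of these lists, in the same order, were -0.04, -0.16, -0.09 and -0.28 with antimiR-224, against -0.08 for all genes. Under antimiR-452 they were -0.16, -0.20, -0.04 and -0.31, against -0.05.

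The genes whose pattern over the 12 libraries of a tissue was most like each member's were found by Pearson's r on the log2 scale, among 13818 genes in WAT and 11377 in BAT. These values share libraries and depth and are given as a description. In WAT the nearest to Lcn2 were Sectm1a, Slc7a15 and Ppp1r1b, at r of 0.99 each. Sectm1a was at 127 and 223 in antimiR-224 libraries 1 and 2 and at 95.2, 139 and 110 in antimiR-452 libraries 1 to 3, against 54.0 or less elsewhere, the 5 libraries high in tubule epithelium genes again. The nearest to Saa3 were Cybb (0.87), the phagocyte oxidase subunit, Slc44a2 (0.84) and Klhl6 (0.83). Orm1 was nearest to Ubl4a (0.98), 2010003K11Rik (0.98) and Fgfrl1 (0.97), Serpina3n to Cd302 (0.96), Gm6728 (0.95) and Parp9 (0.94), Lrg1 to Usb1 (0.89), Mettl25 (0.86) and Cltb (0.85), and Cp to 9530068E07Rik (0.91), Acy1 (0.87) and Saraf (0.86). In BAT Orm1 was nearest to Htatip2 (0.99), Serpina3n to Prrc1 (0.97), Cp to B3galt2 (0.97) and Lrg1 to Tmem19 (0.91). Among the members compared, 6 in WAT and 4 in BAT, none was among the 3 genes most like another of them, and Hp and Orm2 were not compared. Between members the r in WAT was -0.57 for Lcn2 and Serpina3n and 0.53 for Orm1 and Serpina3n, and in BAT -0.63 for Orm1 and Serpina3n.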

How the data were processed

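RNA of snap-frozen fat was made into oligo-dT selected, strand-marking libraries, per the labels' protocols. Per the submitters' processing notes, R 2.15.3, DESeq 1.10.1 and GRCm38.p4 were used. No source used here names an aligner, a counter or an annotation. Per the file headers, the authors deposited in each of 4 tables the mean normalized count (a signal scaled by DESeq size factors) of all 8 libraries and of each group, their ratio, the log2 ratio, a p-value and an adjusted p-value, without counts per library.

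Each mean is a weighted sum of 4 whole numbers, so reads and size factors were recovered from the 15 digits of the means, for control libraries from both tables of a tissue. Inhibitor reads that the digits left ambiguous were settled by recomputing the authors' p-value, a step chosen after the data had been seen. The genes not recovered (204 to 270 per table) were abundant and held 30.8% to 48.9% of the summed means. In a simulation of each WAT comparison 27888 of 28095 and 27805 of 28007 genes were recovered and 0 were wrong. Recomputed p-values matched the deposited ones in 100% of those checked. That match is partly built in, since the variance curve used for it was drawn from deposited p-values of the same tables. Control values are on the scale of the antimiR-224 tables, which differs from the other by at most 0.895% in WAT and 1.92% in BAT.

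Recovered values are normalized counts of part of the genes, so no count model was run. They were tested with limma 3.58.1 (trend, robust, R 4.3.3) on log2(normalized count + 1), for genes with a mean of at least 10, with Benjamini-Hochberg adjustment over all genes tested and a threshold of 0.05. A fold on this scale understates the change of low genes. Member values below the minimum were tested by exact permutation of libraries. The depot comparison used median-of-ratios size factors over both tissues, and the search for genes of like pattern used factors over the 12 libraries of a tissue. Marker list levels by library used the size factors recovered for each table. Marker lists cover only recovered genes. At least 99.4% of gene identifiers matched a symbol. The recovery and the limma step were tested on simulated data.

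The members and lists were chosen with earlier results of these data known. Named genes are all members, the 3 most abundant genes of a list, genes past the test, and the 3 genes most like each member. Sectm1a, Saa1 and Saa2 values by library, and the other list genes named, were chosen after their values were seen. Alternatives covered the pseudocount, minimum mean, robust step, scaling and single libraries.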

Additional observations from a re-analysis of the deposited data

Results flagged for a closer look

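In groups of 4 libraries, a highest or lowest member value was looked for whose gap to its neighbour, divided by the range of the group, exceeded Dixon's 95% critical value. Of 44 groups of member values, 7 had such a library. Chance alone gives about 1 in 20 where groups are independent and values normally distributed. Normalized counts need not be so distributed, and groups of different members share libraries. In WAT these were Serpina3n in antimiR-224 library 4, at 18008 against 8407 for the next, and Orm2 in antimiR-452 library 4, at 20.0 against 6.33.

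In BAT they were Serpina3n in antimiR-452 library 1, at 949 against 190, Lrg1 in antimiR-452 library 3, at 2877 against 1614, and Orm1 in control library 1, at 730 below the next at 1106. The other 2 were Saa3 in single libraries, at 0.798 with antimiR-224 and 6.00 with antimiR-452, where the remaining libraries held no read. In such a group the gap equals the range by construction, so the rate of 1 in 20 does not apply to these 2 groups.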

How the results depend on the processing

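Of the member values without their main setting, 453 kept their direction and side of the threshold when a library was left out and 18 changed direction. Under other settings 328 kept both and 13 changed direction, and no inhibitor difference of a member was called under any setting run (smallest adjusted p 0.0504). All 96 alternative values of the 6 genes called between the tissues kept direction and call (log2 1.62 to 7.02, highest adjusted p 0.0245). Genes called between the tissues numbered 5919 to 6719 without a library, 5968 without the libraries high in other tissues' genes, 7445 under upper quartile scaling and 8940 under scaling by total reads.

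Counts of called genes depended on libraries. Without the WAT libraries high in germ cell genes, 1371 genes were called with antimiR-224. That fit kept antimiR-224 libraries 1 and 2, both high in tubule epithelium genes, against controls that were not. Leaving out single libraries gave 0 to 547 with antimiR-452 in WAT and 0 to 86 for its interaction, the upper values without antimiR-452 library 4. The WAT antimiR-452 libraries then left, 1, 2 and 3, were all high in tubule epithelium genes, and no control was. Inhibitor and epithelium level cannot be told apart in those fits. Without the libraries high in other tissues' genes, 10 were called with antimiR-224 in BAT. The authors' test called 1 gene and limma 0 with antimiR-224 in WAT. The cause was not tested.

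Without the tubule epithelium libraries, an alternative chosen after seeing the data like that on germ cell genes, Lcn2 was at -0.23 and Serpina3n at 0.43 with antimiR-224, and Lcn2 at -1.16, Orm1 at 0.44 and Serpina3n at 0.33 with antimiR-452, and the antimiR-452 interaction was at -1.29 for Lcn2 and 0.11 for Orm1. Serpina3n was at 0.024 with antimiR-224 under upper quartile scaling. Without libraries high in other tissues' genes, BAT values were 0.064 for Cp and -0.14 for Lrg1 with antimiR-224 and -0.34 for Lcn2 with antimiR-452. The authors' ratios and limma differed in sign for Serpina3n (-0.0063 in limma) and Lrg1 (-0.10 in limma) with antimiR-224 in WAT, since ratios of means and differences of log values weigh a high library differently.

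Leaving out single libraries gave, with antimiR-224 in WAT, -0.33 to 0.15 for Serpina3n and -0.49 to 0.28 for Lrg1. With antimiR-452 in BAT it gave -0.077 to 0.41 for Lcn2, -0.047 to 0.92 for Orm1, -0.34 to 1.03 for Serpina3n and -0.29 to 0.10 for Cp. Between the tissues Orm1 ranged from -0.33 to 0.64. The interaction ranged from -0.68 to 0.080 for Lrg1 with antimiR-224, and with antimiR-452 from -1.20 to 0.17 for Serpina3n and from -0.0015 to 0.38 for Cp.

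No paired analysis was possible because the recovered libraries could not be tied to the replicate numbers in the titles. Some library numbers in the file headers recur in WAT and BAT of the same treatment, and whether these mark the same mice is not given in the sources used here. Fits across tissues took their libraries as independent. Leaving out all WAT libraries high in other tissues' genes could not be fitted for antimiR-224, since no inhibitor library remained. Depth limits Saa3, Orm2 and Lcn2 in BAT.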

Other observations

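The liver serum amyloid genes Saa1 and Saa2 stood out in a single white fat library. In WAT control library 2 they were at 587 and 410 normalized counts, and in each of the other 11 WAT libraries at 8.87 or less. The same library had the highest Saa3 of the 4 controls (981) and the highest male germ cell level of the 12 libraries (3413). It was also the highest of the 12 for the hepatocyte list, at a geometric mean of 366 against 44.0 to 349 in the others, and for the liver acute phase list, at 220 against 39.9 to 132, and Saa1 and Saa2 belong to the latter. Their part was not tested. These genes were looked at after their values were seen.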
